A study of Mus musculus with 24 samples.

Results

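The interferon-stimulated genes described here are a list of 43 genes, taken by name. The list was chosen with earlier results of these data known, so its shares against all genes are not independent of those results. By gene ID, 41 of the 43 were found among the 41388 genes of the count tables, and all 41 passed the filter on low counts, which left 19717 genes to test. Gbp5 and Gbp6 were not analysed here. RNA came from inguinal white adipose tissue of male mice, which carried loxP sites around Nr3c2, the mineralocorticoid receptor gene, in every group. There were 6 groups of 4 libraries: corticosterone-treated FMRKO, corticosterone-treated control, high-fat diet FMRKO, high-fat diet control, chow FMRKO and chow control. FMRKO mice also carried Adipoq-Cre, which is active in adipocytes, so the other cells of the tissue keep the receptor, and control mice had no Cre. How much corticosterone was given and for how long, a vehicle group, the fat content of the diet, and age and strain were not given in the sources used here. Libraries are named by the number in their titles, which runs from 1 to 4 under corticosterone and on high-fat diet, is 1, 2, 3 and 5 in chow FMRKO and 1, 2, 4 and 5 in chow control, and values below follow that order.

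Interferons are secreted signals of antiviral defence. Type I interferons act through a receptor whose kinases activate a factor complex with Stat2 and Irf9, which binds the interferon-stimulated response element in promoters. Interferon gamma acts through its own receptor and induces Irf1 and the guanylate-binding proteins (GBP) and immunity-related GTPases (IRG), which attack the membranes around intracellular pathogens. The programmes overlap, since most of these genes answer to both signals to some degree, and glucocorticoids such as corticosterone are known to damp them in immune cells. In adipose tissue, adipocytes, macrophages, lymphocytes and endothelial cells can all carry the response. Of the 41 genes, 11 are GBP or IRG GTPases and the other 30 are called the type I set.

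The promoters are shown because most members of both sets were lower under corticosterone than on chow in control mice. RefSeq's promoter table for GRCm38.p6, with 250 bases before and 50 after each start site, held 33 promoters of 28 members. The core GAAANNGAA of the interferon-stimulated response element, searched on both strands, stood in 21 of the 33 (63.6%), against 8.56% of all 32851 promoters of the table. It stood in 7 of 8 GTPase promoters (87.5%) and in 14 of 25 type I promoters (56.0%). The core TTCNNNGAA of the gamma-activated site, which can overlap the other core, stood in 4 of 8 GTPase promoters, 5 of 25 type I promoters and 8.30% of all promoters. The first 4 windows below are from the type I set and the other 4 from GTPases, each of 70 bases on the gene's strand, and capitals mark the response element core in either orientation. Of these genes, Isg15, Bst2, Gbp2 and Tgtp1 were not called lower in control mice with all libraries.
Isg15, chr4:156200845-156200914, minus strand: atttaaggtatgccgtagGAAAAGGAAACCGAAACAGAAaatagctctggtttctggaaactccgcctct
Ifit1, chr19:34640775-34640844, plus strand: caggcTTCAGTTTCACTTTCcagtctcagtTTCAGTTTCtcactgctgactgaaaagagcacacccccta
Oas3, chr5:120777689-120777758, minus strand: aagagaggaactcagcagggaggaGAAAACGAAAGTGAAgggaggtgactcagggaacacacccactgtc
Bst2, chr8:71537557-71537626, minus strand: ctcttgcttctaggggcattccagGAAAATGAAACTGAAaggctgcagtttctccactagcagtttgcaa
Gbp2, chr3:142620575-142620644, plus strand: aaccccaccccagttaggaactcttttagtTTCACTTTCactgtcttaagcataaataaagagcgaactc
Gbp7, chr3:142530254-142530323, plus strand: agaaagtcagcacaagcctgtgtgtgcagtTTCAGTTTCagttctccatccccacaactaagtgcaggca
Irgm2, chr11:58214883-58214952, plus strand: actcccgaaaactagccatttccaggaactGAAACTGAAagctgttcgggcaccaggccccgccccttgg
Tgtp1, chr11:48992284-48992353, minus strand: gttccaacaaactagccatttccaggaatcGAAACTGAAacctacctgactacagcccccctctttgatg
Counted from the start site, the match nearest to it in the window began at -66 in Isg15, -84 in Ifit1, -69 in Oas3 and -124 in Bst2. It began at -58 in Gbp2, -52 in Gbp7, -64 in Irgm2 and -77 in Tgtp1. The windows of Isg15, Oas3 and Bst2 held overlapping cores, and that of Ifit1 held overlapping cores and a separate one. A match is only a match of letters and says nothing of binding in these samples. The genes were listed as interferon-stimulated, so these shares do not bear on the fall under corticosterone.

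The libraries held 17925109 to 40427675 counted reads each. Levels are given as CPM, the deposited counts scaled to each library's total over the tested genes after TMM normalization. They are not the CPM values that the authors deposited. The labels do not state that libraries came from separate animals, and the spread behind each p-value is that between libraries, which may be technical. Nr3c2 had 10.7, 7.73, 12.2 and 11.7 CPM in corticosterone FMRKO libraries, against 16.2, 18.4, 18.2 and 14.1 CPM in corticosterone control libraries. It ranged from 12.7 to 15.7 CPM in high-fat diet FMRKO and from 18.5 to 25.0 CPM in high-fat diet control libraries, and from 11.3 to 25.8 CPM in chow FMRKO and 17.6 to 28.7 CPM in chow control libraries, where the groups overlapped. The list of 8 adipocyte markers averaged 9.48 to 11.21 log2 CPM in every library. The list of 19 lymph node lymphocyte markers was above 3 log2 CPM in 6 libraries, namely 1 and 4 of both high-fat diet groups and 1 and 3 of chow FMRKO. The muscle marker list was above 4 log2 CPM in corticosterone control 2, high-fat diet control 3 and chow FMRKO 5. The titles of the chow samples alone open with a further number, so any difference in handling between chow and the other libraries cannot be told apart from the comparisons with chow.

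Corticosterone FMRKO 2 stood apart from every other library in these genes. Of the 41 members, 40 were at least 2-fold above the median of the other 3 libraries of its group, against 7.2% of all genes tested, and it had the highest level of all 24 libraries for 33 of them (80.5%, against 3.76% of all genes). Its median ratio was 5.67 over the members, 7.41 over the GTPases, 5.04 over the type I set and 0.999 over all genes. Iigp1, an IRG that coats pathogen vacuoles, had 207 CPM there, against 5.19, 6.85 and 4.93 CPM in the other 3 libraries, a ratio of 40.0. The exception was Ifi27, with 223 CPM there, against 210, 191 and 192 CPM. The glucocorticoid targets Fkbp5 and Tsc22d3 were slightly above the rest of the group there, with 471 and 453 CPM, against 328 to 452 CPM and 327 to 433 CPM. The list of 5 such targets had a median ratio of 1.37, from 1.07 to 1.67. Of the 5, 3 were above the other 7 corticosterone libraries, against 18.4% of all genes. Results that rest on this library are given with it and without it.

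Other immune genes moved in the same library. The 9 markers of T and NK effector cells summed to 30.6 CPM there, against 2.87 to 4.47 CPM in the other 7 corticosterone libraries, and all 9 were at least 2-fold above the median of the other 3 libraries of its group. Gzmb, the cytotoxic granule protease granzyme B, had 14.4 CPM there, against 0.143 to 0.420 CPM in the other 7. Ifng, which encodes interferon gamma, had 10 counts (0.442 CPM) there and none in the other 7. The 12 macrophage markers summed to 2468 CPM, against 1402 to 2105 CPM, and the 19 lymph node markers to 121 CPM, against 7.9 to 99.7 CPM. The library next to it in lymph node markers, corticosterone FMRKO 3, averaged 2.07 log2 CPM over that list, against 2.43 in FMRKO 2, and its members averaged 3.05 log2 CPM, against 5.58 in FMRKO 2. The part of these cells in the levels of the members was not tested.

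**Figure D1:**
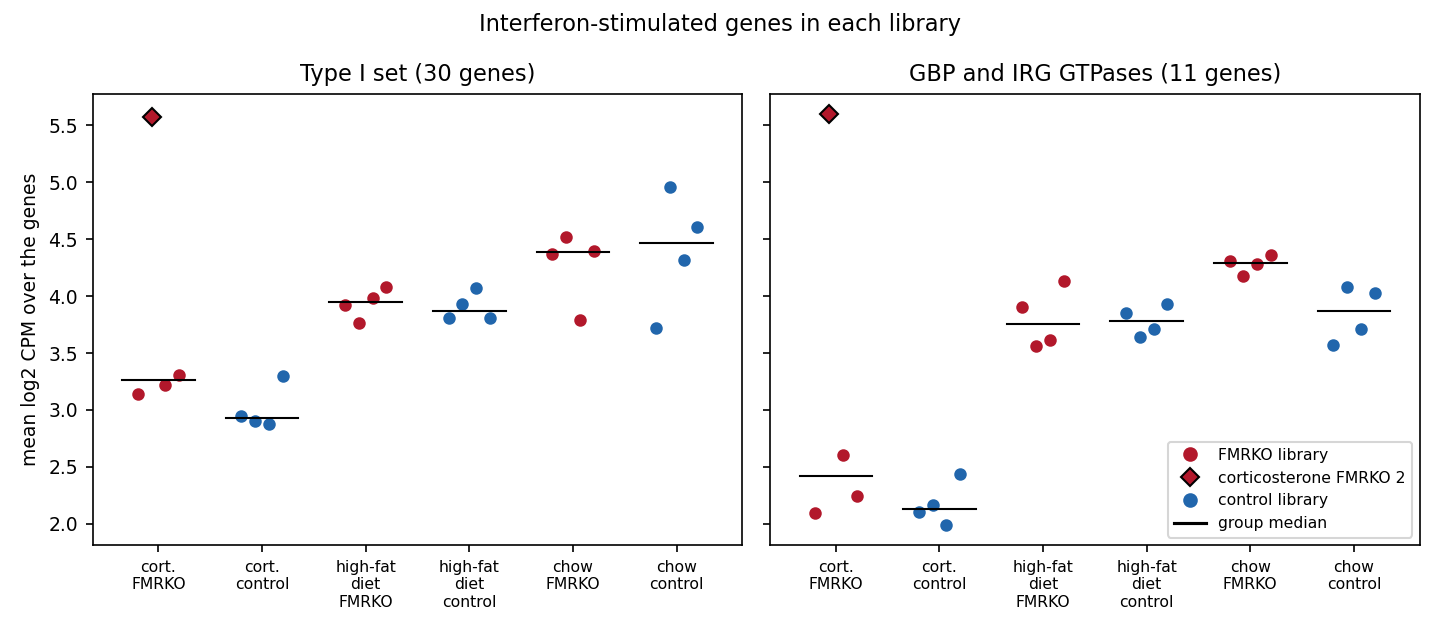
The mean log2 CPM of the 30 type I genes and of the 11 GTPases is plotted for each library, with a line at the group median and a diamond for corticosterone FMRKO 2. That library reaches 5.57 and 5.6, while the other 7 corticosterone libraries lie at 2.88 to 3.31 and 1.99 to 2.6, below all 8 chow libraries.

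Corticosterone was compared with chow in control mice first. Of the 41 members, 30 were lower and 1, Ifi27, was higher under corticosterone. Of all genes tested, 42.9% were called, 22.7% lower. The median log2 fold change of the members was -1.33, against -0.12 over all genes, and it ran from -4.34 for Gbp11 to 0.68 for Ifi27. In 32 members every corticosterone control library lay below every chow control library, against 22.2% of all genes. The type I set had 24 of 30 lower and a median of -1.32, and the GTPases had 6 of 11 lower and a median of -1.68. The 10 members that did not pass were Isg15, Ifit2, Ifit3, Bst2, Rtp4, Gbp2, Gbp8, Irgm1, Igtp and Tgtp1, all with negative estimates. In tissue RNA, fewer cells of a type and less RNA per cell cannot be told apart. Marker lists that fell with the members in this comparison were those of T and NK effector cells (6 of 9 lower, summed level 2.87 to 4.07 CPM, against 8.45 to 14.3 CPM on chow), dendritic cells (4 of 8), endothelium (6 of 6) and stromal fibroblasts (4 of 6, 1 higher). Macrophage markers had 2 of 12 lower and none higher, with summed levels of 1402 to 2105 CPM, against 687 to 2375 CPM on chow. Of the adipocyte markers 4 of 8 rose. Of the lymph node markers 0 of 19 passed, with summed levels of 8.06 to 9.15 CPM, against 26.7 to 33.3 CPM, and Cd3d, Cd3g, Cd8a, Cd5 and Ms4a1 were at 0 in a corticosterone library. The part of these cell types in the fall was not tested. Fewer members were called in control mice without the 6 libraries rich in lymph node markers and the 3 rich in muscle markers. That fit has fewer libraries, and its share of all genes called is not given here.

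The 4 transcription factors of the response all fell in control mice. Stat2, which joins Irf9 in the complex that binds the response element, had 26.8, 26.2, 24.3 and 28.9 CPM in corticosterone control libraries, against 41.4, 78.9, 55.2 and 71.4 CPM in chow control libraries. The groups did not overlap, and chow control 1 was the lowest on chow (log2 fold change -1.22 ± 0.33, adjusted p = 0.005, SE, n = 4 each). Irf1, a factor induced mainly by interferon gamma, had 26.2, 28.2, 29.7 and 29.1 CPM in corticosterone control libraries, against 71.3, 64.1, 66 and 69.9 CPM in chow control libraries. Every chow library was well above every corticosterone library (-1.26 ± 0.18, adjusted p = 1.8e-05). Irf7, which amplifies the transcription of type I interferon genes, had 23.7, 16.3, 17.3 and 28.2 CPM in corticosterone control libraries, against 32.4, 75.7, 66.9 and 70.4 CPM in chow control libraries. It also did not overlap, though chow control 1 came close to corticosterone control 4 (-1.52 ± 0.45, adjusted p = 0.010). Irf9, the DNA-binding partner of Stat2, had 14.8, 15.5, 15.4 and 20.0 CPM in corticosterone control libraries, against 26.7, 40.4, 32.4 and 34.7 CPM in chow control libraries, and fell by 1.03 ± 0.23 (adjusted p = 0.001). Irf9 shares 123 exon bases with Rnf31, Irf1 lies opposite Gm17334 over 135 bases and Irf7 opposite Phrf1 over 45, and the strand setting of the counting was not given.

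The OAS family, whose enzymes make the messenger that switches on RNase L, fell in all 5 members in control mice, with a median of -2.30. Oas2 had 6.63, 5.77, 6.48 and 8.13 CPM in corticosterone control libraries, against 11.3, 49.2, 28.3 and 44.3 CPM in chow control libraries. Every corticosterone library was below chow, though chow control 1 stood close (-2.30 ± 0.44, adjusted p = 3.1e-04). Oas3 had 1.15, 0.656, 0.66 and 2.05 CPM in corticosterone control libraries, against 2.31, 26.1, 7.22 and 13.5 CPM in chow control libraries. Chow libraries differed among themselves more than the corticosterone ones, with chow control 2 highest (-3.45 ± 0.87, adjusted p = 0.003). Oasl2, an OAS-like protein, had 8.17, 6.59, 6.89 and 10.3 CPM in corticosterone control libraries, against 17, 67.4, 39.4 and 53.1 CPM in chow control libraries (-2.47 ± 0.56, adjusted p = 0.001). Oas1a had 2.11, 4.07, 2.68 and 5.77 CPM in corticosterone control libraries, against 4.21, 17.2, 9.63 and 10.4 CPM in chow control libraries. Here chow control 1 lay inside the corticosterone range (-1.50 ± 0.49, adjusted p = 0.018), and Oas1a has close copies between which reads could be split. Oasl1 also fell (-1.52 ± 0.59, adjusted p = 0.044).

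In the ISG15 system and the IFIT family, which binds the ends of foreign RNA, 2 of 5 members passed in control mice. Isg15, a ubiquitin-like modifier, had 2.47, 2.81, 1.94 and 4.15 CPM in corticosterone control libraries, against 3.47, 12.8, 4.58 and 5.24 CPM in chow control libraries. Its groups overlapped, with chow control 2 far above the rest (-1.20 ± 0.68, adjusted p = 0.160). Usp18, which removes Isg15 from proteins and dampens the type I receptor, had 6.06, 5.04, 5.65 and 6.37 CPM in corticosterone control libraries, against 9.86, 18.7, 12.6 and 17.5 CPM in chow control libraries. Its groups did not overlap (-1.34 ± 0.42, adjusted p = 0.013). Ifit1 had 4.19, 2.76, 3.3 and 4.19 CPM in corticosterone control libraries, against 8.35, 18.4, 11.6 and 12.9 CPM in chow control libraries, with every chow library above every corticosterone library (-1.83 ± 0.62, adjusted p = 0.023). Ifit3 had 10.6, 8.71, 9.86 and 11.6 CPM in corticosterone control libraries, against 10.8, 27.7, 20.9 and 22.3 CPM in chow control libraries. Chow control 1 lay within the corticosterone values and the test did not pass (-1.0 ± 0.57, adjusted p = 0.162), and Ifit3 has a near copy, Ifit3b. The estimate for Ifit2 was -0.84 ± 0.41, adjusted p = 0.106.

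All 5 nucleic acid sensors fell in control mice, most of them by less than the OAS genes. Ddx58, the RNA sensor RIG-I, had 26.2, 28.8, 29.3 and 30.7 CPM in corticosterone control libraries, against 38.8, 59.4, 40.4 and 51 CPM in chow control libraries. The groups were separate but close (-0.72 ± 0.21, adjusted p = 0.008). Eif2ak2, the kinase PKR that halts translation on double-stranded RNA, had 21.2, 19.5, 19.4 and 20.2 CPM in corticosterone control libraries, against 22.2, 35.6, 25.7 and 34.3 CPM in chow control libraries. Chow control 1 was just above the corticosterone libraries (-0.55 ± 0.21, adjusted p = 0.042), and Gm26637 lies opposite 174 of its exon bases. Zbp1, a sensor of Z-form nucleic acid that can start necroptosis, had 2.98, 2.78, 1.2 and 3.51 CPM in corticosterone control libraries, against 6.91, 21.3, 12.8 and 17.8 CPM in chow control libraries. It had the largest change of the sensors (-2.49 ± 0.75, adjusted p = 0.011). Ifih1 and Dhx58, the relatives MDA5 and LGP2, changed by -0.60 ± 0.21 and -1.33 ± 0.36.

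Of the 11 other type I effectors, 8 fell and 1 rose in control mice. Mx1, a dynamin-like GTPase that traps viral capsids, had 0.824, 0.814, 0.66 and 0.941 CPM in corticosterone control libraries, against 1.99, 14.3, 6.24 and 13.3 CPM in chow control libraries. All 4 corticosterone libraries were below 1 CPM (-3.46 ± 0.86, adjusted p = 0.003). Mx2, its relative, had 0.968, 0.446, 0.784 and 0.941 CPM in corticosterone control libraries, against 3.5, 6.66, 4.38 and 5.72 CPM in chow control libraries, again without overlap (-2.69 ± 0.48, adjusted p = 1.5e-04). Rsad2, the antiviral enzyme viperin, had 8.32, 7.69, 7.14 and 8.34 CPM in corticosterone control libraries, against 14.5, 34.9, 15.3 and 23.1 CPM in chow control libraries. Corticosterone libraries lay in a narrow band under all chow libraries (-1.48 ± 0.42, adjusted p = 0.007). Xaf1, an antagonist of an apoptosis inhibitor, had 9.61, 9.0, 8.91 and 9.62 CPM in corticosterone control libraries, against 18.3, 28.5, 18.6 and 23.4 CPM in chow control libraries (-1.26 ± 0.35, adjusted p = 0.006). Parp14, an ADP-ribosyltransferase, had 46, 50.8, 45.6 and 51.9 CPM in corticosterone control libraries, against 80.1, 138, 91.2 and 122 CPM in chow control libraries. The groups were apart in both genes (-1.15 ± 0.28, adjusted p = 0.002 for Parp14).

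Bst2, or tetherin, which holds budding virions on the cell surface, had 25.5, 26.5, 29.2 and 48.1 CPM in corticosterone control libraries, against 38.1, 56.5, 54.4 and 44.1 CPM in chow control libraries. Corticosterone control 4 lay inside the chow range, and the test did not pass (-0.58 ± 0.32, adjusted p = 0.150). Rtp4 had 9.82, 5.59, 5.9 and 9.15 CPM in corticosterone control libraries, against 11.1, 24.1, 15.2 and 16.2 CPM in chow control libraries, without overlap and without passing (-1.13 ± 0.47, adjusted p = 0.058). Ifi27, a small interferon-inducible membrane protein, went the other way, with 221, 194, 213 and 232 CPM in corticosterone control libraries, against 175, 102, 134 and 124 CPM in chow control libraries. Every corticosterone library was above every chow library (0.68 ± 0.18, adjusted p = 0.005). The estimates for Ifi44, Cmpk2 and Trim30a were -2.37 ± 0.67, -1.31 ± 0.42 and -1.57 ± 0.40, all of which passed.

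Among the guanylate-binding proteins, 4 of 6 fell in control mice. Gbp11 had 0.824, 0.499, 0.866 and 1.2 CPM in corticosterone control libraries, against 8.64, 27.5, 20.4 and 11.4 CPM in chow control libraries. It was near 1 CPM in every corticosterone library and had the largest change of all members (-4.34 ± 0.79, adjusted p = 1.9e-04). Gbp9 had 7.06, 9.84, 8.54 and 8.47 CPM in corticosterone control libraries, against 23.7, 29.6, 23.6 and 32.8 CPM in chow control libraries, in well separated groups (-1.69 ± 0.35, adjusted p = 7.1e-04). Gbp7 had 18.4, 17.5, 16.6 and 18.7 CPM in corticosterone control libraries, against 38.1, 42.2, 35.4 and 52.4 CPM in chow control libraries. Corticosterone libraries stayed within a narrow band (-1.24 ± 0.35, adjusted p = 0.008). Gbp3 had 6.77, 7.06, 7.63 and 12.5 CPM in corticosterone control libraries, against 16.1, 17.6, 20.3 and 24.7 CPM in chow control libraries, with corticosterone control 4 above the others of its group (-1.21 ± 0.46, adjusted p = 0.039). Gbp2 had 22, 24.5, 23.9 and 25.5 CPM in corticosterone control libraries, against 31.5, 24.5, 26.3 and 29.3 CPM in chow control libraries, in overlapping groups (-0.22 ± 0.44, adjusted p = 0.715). Gbp8 had 0.108, 0.262, 0.165 and 0.128 CPM in corticosterone control libraries, against 0.675, 1.87, 0.513 and 1.67 CPM in chow control libraries. These are few reads, and its test did not pass (-2.76 ± 1.29, adjusted p = 0.090). Gbp8 and Gbp9 share 60 exon bases with each other, and either could take reads of the other.

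Among the immunity-related GTPases, Iigp1 and Irgm2 fell and the other 3 did not pass. Iigp1 had 5.09, 5.17, 2.43 and 5.99 CPM in corticosterone control libraries, against 17.4, 21.9, 20.9 and 24.7 CPM in chow control libraries, in groups far apart (-2.18 ± 0.83, adjusted p = 0.039). Irgm1, which regulates the other IRG proteins and autophagy, had 10.8, 10.6, 10.6 and 12.9 CPM in corticosterone control libraries, against 19.8, 25.9, 20.6 and 22.5 CPM in chow control libraries. Its groups did not overlap, though the adjusted p missed 0.05 (-0.99 ± 0.40, adjusted p = 0.051). Igtp, the regulator Irgm3, had 6.02, 5.93, 5.53 and 7.53 CPM in corticosterone control libraries, against 11.1, 21.7, 11.2 and 16.2 CPM in chow control libraries, also without overlap (-1.27 ± 0.66, adjusted p = 0.128). Tgtp1 had 0.323, 0.42, 0.206 and 0.642 CPM in corticosterone control libraries, against 1.41, 1.09, 1.18 and 1.45 CPM in chow control libraries, again without overlap (-1.68 ± 0.73, adjusted p = 0.068). The standard errors of these genes come from a fit in which all 6 groups share the spread, and corticosterone FMRKO 2 enters that spread. Without that library, Irgm1, Igtp and Tgtp1 were called in control mice too (-0.96 ± 0.15, -1.25 ± 0.24 and -1.65 ± 0.45), and 39 of the 41 members were lower, 1 higher, against 41.8% of all genes called. Fitted on the control groups alone, 38 were lower, and the share of all genes in that fit is not given here. Irgm2 (-1.69 ± 0.47, adjusted p = 0.006) shares 162 exon bases with Igtp, and Tgtp1 has a near-identical copy, Tgtp2, so that their split of reads is uncertain.

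**Figure D2:**
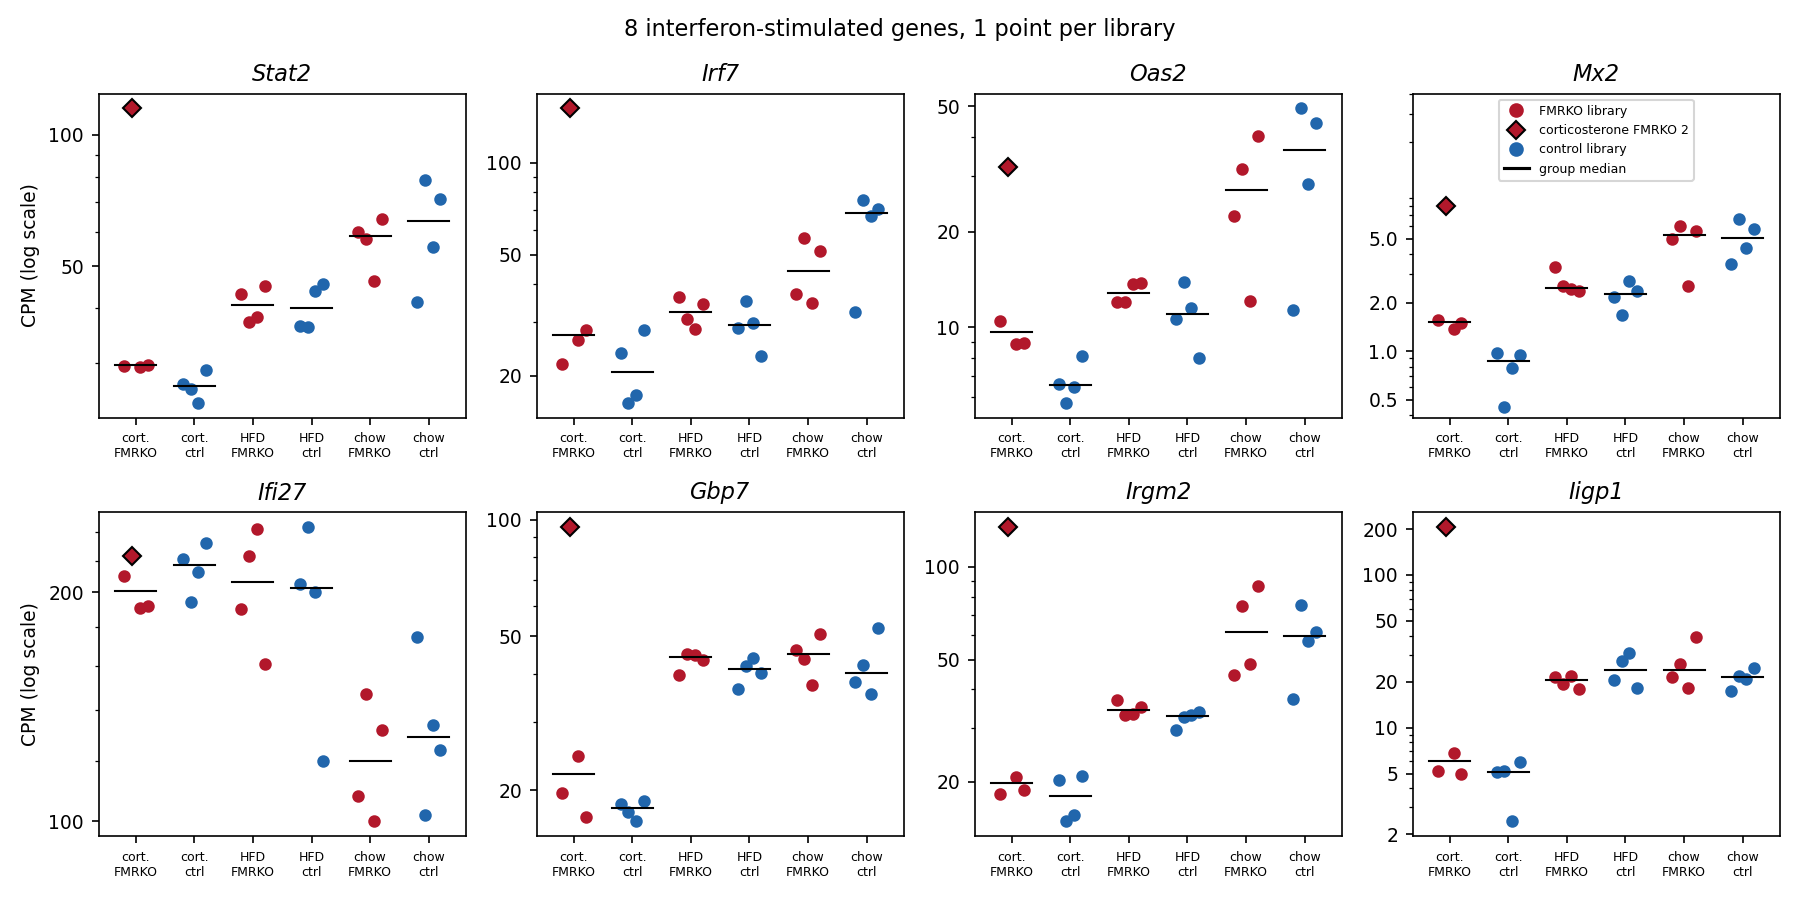
CPM on a log axis is plotted for 8 members in each library, with HFD for high-fat diet, ctrl for control and a line at the group median. In 7 of the 8 genes the corticosterone libraries other than FMRKO 2 lie below all chow libraries, and Ifi27 lies higher under corticosterone (191 to 232 CPM) and lower on chow (100 to 175 CPM).

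The same comparison in FMRKO mice depended on 1 library. With all 4 corticosterone FMRKO libraries, 4 of the 41 members were lower (Irf1, Irf9, Gbp9 and Gbp11) and Ifi27 was higher. Of all genes, 41.1% were called, 20.9% lower, and the members' median was -0.15, against -0.11. Without corticosterone FMRKO 2, 33 members were lower and Ifi27 again higher, against 36.5% of all genes called and 18.2% lower, and the members' median was -1.13, against -0.14. The 33 were 22 of 30 in the type I set, with a median of -0.98, and 11 of 11 GTPases, with a median of -1.72. In 32 members the 3 remaining libraries lay below all chow FMRKO libraries, against 20.4% of all genes. With all libraries, 30 members were lower in control mice. Of these, 26 were also lower in FMRKO mice without FMRKO 2, which is 26 of 30 and 26 of 33. Isg15, Ifit3 and Bst2 passed in neither of these fits. The spread of the control fit still held FMRKO 2. Without that library, 40 of the 41 members were called in control mice, against 41.8% of all genes. Over the mean of both genotypes, 22 members were lower and 1 higher with all libraries, against 57.7% of all genes called, 32.0% lower, and 40 were lower and 1 higher without FMRKO 2, against 55.2% called, 30.3% lower. In this comparison, with all 4 libraries, T and NK effector markers had 5 of 9 lower, lymph node markers 11 of 19, dendritic cell markers 6 of 8, endothelial markers 4 of 6, stromal fibroblast markers 3 of 6 (1 higher) and skeletal muscle markers 7 of 9. Macrophage markers had 8 of 12 higher and adipocyte markers 4 of 8 higher, and the part of these cells was not tested. The muscle list averaged 8.7 log2 CPM in chow FMRKO 5 and -1.54 to -0.65 in the other chow FMRKO libraries. It averaged -0.84 to 0.53 in corticosterone FMRKO libraries. In control mice 2 of its 9 genes were higher and 0 lower, and corticosterone control 2 averaged 6.71.

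Of the transcription factors, Stat2 had 29.5, 115, 29.4 and 29.7 CPM in corticosterone FMRKO libraries, against 59.9, 57.6, 46.2 and 64.2 CPM in chow FMRKO libraries. It was called only without FMRKO 2 (-0.16 ± 0.32, adjusted p = 0.711 with it, and -0.96 ± 0.17, adjusted p = 2.6e-04 without it). Irf1 had 32.1, 68.6, 36.4 and 30.1 CPM in corticosterone FMRKO libraries, against 88.6, 82.3, 88.7 and 73.6 CPM in chow FMRKO libraries. Even FMRKO 2 lay below all chow libraries, the sole member of which this held (-1.0 ± 0.18, adjusted p = 2.3e-04). Irf9 had 17.4, 45.7, 21.2 and 17.5 CPM in corticosterone FMRKO libraries, against 46.9, 37.9, 32.3 and 37.9 CPM in chow FMRKO libraries, and fell with all libraries (-0.61 ± 0.23, adjusted p = 0.037). Irf7 had 21.8, 151, 26.2 and 28.2 CPM in corticosterone FMRKO libraries, against 37, 56.7, 34.6 and 51.2 CPM in chow FMRKO libraries. Its estimate was 0.34 ± 0.44 with FMRKO 2 and -0.82 ± 0.25 without it.

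Of the OAS genes, Oas2 had 10.5, 32.2, 8.87 and 8.89 CPM in corticosterone FMRKO libraries, against 22.4, 31.7, 12.1 and 40.1 CPM in chow FMRKO libraries. Oas3 had 1.55, 34.9, 1.82 and 2.75 CPM in corticosterone FMRKO libraries, against 10.9, 9.39, 5.11 and 6.38 CPM in chow FMRKO libraries. Oasl2 had 10.4, 88.6, 12.1 and 12.5 CPM in corticosterone FMRKO libraries, against 30.7, 44.6, 18.1 and 43.6 CPM in chow FMRKO libraries. In all of them the 3 low corticosterone libraries lay below every chow library and FMRKO 2 inside or above the chow range. Their estimates without FMRKO 2 were -1.50 ± 0.38, adjusted p = 0.005, then -1.97 ± 0.60, adjusted p = 0.015, and -1.56 ± 0.35, adjusted p = 0.002. Oas1a had 3.98, 19.6, 3.41 and 4.79 CPM in corticosterone FMRKO libraries, against 6.81, 10.0, 3.72 and 8.61 CPM in chow FMRKO libraries. Chow FMRKO 3 lay within the corticosterone values, and the test did not pass even without FMRKO 2 (-0.85 ± 0.39, adjusted p = 0.095).

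Isg15 had 3.42, 46.3, 2.67 and 3.0 CPM in corticosterone FMRKO libraries, against 6.5, 7.05, 3.59 and 5.32 CPM in chow FMRKO libraries. Usp18 had 7.00, 36.4, 7.2 and 6.29 CPM in corticosterone FMRKO libraries, against 17.5, 17, 12.4 and 16.2 CPM in chow FMRKO libraries. FMRKO 2 was more than 2-fold above every chow library in both genes. Ifit1 had 2.87, 44, 3.06 and 5.68 CPM in corticosterone FMRKO libraries, against 10.7, 13.4, 4.4 and 10.8 CPM in chow FMRKO libraries. Ifit3 had 9.24, 103, 9.02 and 12.7 CPM in corticosterone FMRKO libraries, against 15.7, 21.3, 8.57 and 21.1 CPM in chow FMRKO libraries. Chow FMRKO 3 was the lowest on chow in both IFIT genes and overlapped the corticosterone libraries. Without FMRKO 2, Usp18 and Ifit1 fell (-1.22 ± 0.23, adjusted p = 5.6e-04 and -1.34 ± 0.35, adjusted p = 0.006), and Isg15 and Ifit3 did not pass (-0.89 ± 0.36, adjusted p = 0.060 and -0.69 ± 0.30, adjusted p = 0.072).

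Of the sensors, Ddx58 had 31.3, 72.2, 33.1 and 32.7 CPM in corticosterone FMRKO libraries, against 60.5, 52.4, 46.6 and 48.6 CPM in chow FMRKO libraries. Eif2ak2 had 19.2, 47, 22.8 and 23.1 CPM in corticosterone FMRKO libraries, against 24.2, 28.5, 20.6 and 28.4 CPM in chow FMRKO libraries. Zbp1 had 3.17, 68.3, 3.2 and 4.82 CPM in corticosterone FMRKO libraries, against 24.3, 17.2, 15 and 19 CPM in chow FMRKO libraries. Zbp1 and Ddx58 were separate from chow but for FMRKO 2, whereas Eif2ak2 overlapped chow. Without FMRKO 2 the changes were -0.70 ± 0.15, adjusted p = 0.001 for Ddx58, -2.35 ± 0.40, adjusted p = 2.0e-04 for Zbp1 and -0.24 ± 0.16, adjusted p = 0.246 for Eif2ak2.

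Of the other effectors, Mx1 had 0.81, 20.9, 1.62 and 1.32 CPM in corticosterone FMRKO libraries, against 15, 6.54, 6.95 and 7.24 CPM in chow FMRKO libraries. Mx2 had 1.55, 8.00, 1.38 and 1.5 CPM in corticosterone FMRKO libraries, against 4.99, 6.00, 2.55 and 5.57 CPM in chow FMRKO libraries. Both fell without FMRKO 2 (-2.86 ± 0.62, adjusted p = 0.001 and -1.70 ± 0.30, adjusted p = 2.9e-04). Rsad2 had 8.95, 36.9, 8.7 and 9.28 CPM in corticosterone FMRKO libraries, against 12.2, 19, 9.05 and 12.6 CPM in chow FMRKO libraries, with chow FMRKO 3 among the corticosterone values (-0.56 ± 0.31, adjusted p = 0.163 without FMRKO 2). Xaf1 had 9.09, 41.4, 10.1 and 9.61 CPM in corticosterone FMRKO libraries, against 20.9, 25.7, 14.4 and 23.7 CPM in chow FMRKO libraries. Parp14 had 51.4, 173, 57.4 and 57.1 CPM in corticosterone FMRKO libraries, against 109, 109, 82 and 114 CPM in chow FMRKO libraries. Both were separate from chow but for FMRKO 2 (-1.14 ± 0.17, adjusted p = 5.4e-05 and -0.91 ± 0.15, adjusted p = 1.6e-04 without it). Rtp4 had 8.54, 45.2, 7.43 and 7.39 CPM in corticosterone FMRKO libraries, against 14.8, 19.4, 8.15 and 21.9 CPM in chow FMRKO libraries. Bst2 had 34.4, 134, 38.3 and 35.9 CPM in corticosterone FMRKO libraries, against 42.2, 42.1, 32.5 and 36.1 CPM in chow FMRKO libraries. Chow libraries overlapped the 3 low corticosterone libraries in both, and without FMRKO 2 Rtp4 passed (-1.04 ± 0.31, adjusted p = 0.014) and Bst2 did not (-0.09 ± 0.18, adjusted p = 0.726). Ifi27 had 210, 223, 191 and 192 CPM in corticosterone FMRKO libraries, against 108, 147, 100 and 132 CPM in chow FMRKO libraries, higher in every corticosterone library (0.74 ± 0.18, adjusted p = 0.003).

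The GTPases had a median ratio of 7.41 between FMRKO 2 and the rest of its group. Gbp2 had 23.6, 180, 26 and 24.6 CPM in corticosterone FMRKO libraries, against 35.2, 37.5, 29.9 and 32.8 CPM in chow FMRKO libraries. Gbp3 had 7.07, 52.4, 8.29 and 6.68 CPM in corticosterone FMRKO libraries, against 21.5, 23.2, 16.8 and 24.3 CPM in chow FMRKO libraries. Gbp7 had 19.6, 95.9, 24.5 and 17 CPM in corticosterone FMRKO libraries, against 46.1, 43.6, 37.3 and 50.6 CPM in chow FMRKO libraries. In each, the 3 low libraries were below and FMRKO 2 above every chow library. Without FMRKO 2 they changed by -0.46 ± 0.11, adjusted p = 0.003 for Gbp2, by -1.55 ± 0.19, adjusted p = 7.8e-06 for Gbp3 and by -1.13 ± 0.13, adjusted p = 3.6e-06 for Gbp7. Gbp8 had 0, 7.24, 0.558 and 0.286 CPM in corticosterone FMRKO libraries, against 12.8, 1.36, 7.82 and 2.43 CPM in chow FMRKO libraries. Gbp9 had 8.25, 33.7, 10.8 and 7.82 CPM in corticosterone FMRKO libraries, against 44.2, 24.4, 33 and 30.2 CPM in chow FMRKO libraries. Gbp11 had 0.736, 8.48, 0.94 and 0.643 CPM in corticosterone FMRKO libraries, against 3.65, 43.1, 30.9 and 21.8 CPM in chow FMRKO libraries. In these 3 genes FMRKO 2 did not exceed the highest chow library, and Gbp9 and Gbp11 fell with all 4 libraries (-1.13 ± 0.35, adjusted p = 0.014 and -3.22 ± 0.73, adjusted p = 0.002).

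Iigp1 had 5.19, 207, 6.85 and 4.93 CPM in corticosterone FMRKO libraries, against 21.5, 26.1, 18.3 and 39.2 CPM in chow FMRKO libraries. Irgm1 had 10.7, 62.9, 10.7 and 11.6 CPM in corticosterone FMRKO libraries, against 29, 22.7, 19.4 and 23.6 CPM in chow FMRKO libraries. Igtp had 7.11, 125, 7.41 and 7.14 CPM in corticosterone FMRKO libraries, against 18.4, 16, 13.6 and 25.9 CPM in chow FMRKO libraries. Each had 3 libraries below the chow range and FMRKO 2 above it. Tgtp1 had 0.626, 8.39, 0.852 and 0.5 CPM in corticosterone FMRKO libraries, against 4.96, 1.64, 3.98 and 1.92 CPM in chow FMRKO libraries, with the same pattern at a low level. Without FMRKO 2 these changed by -2.22 ± 0.28, adjusted p = 8.0e-06 for Iigp1, -1.11 ± 0.16, adjusted p = 3.7e-05 for Irgm1, -1.36 ± 0.26, adjusted p = 5.3e-04 for Igtp and -2.26 ± 0.49, adjusted p = 0.001 for Tgtp1.

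**Figure D3:**
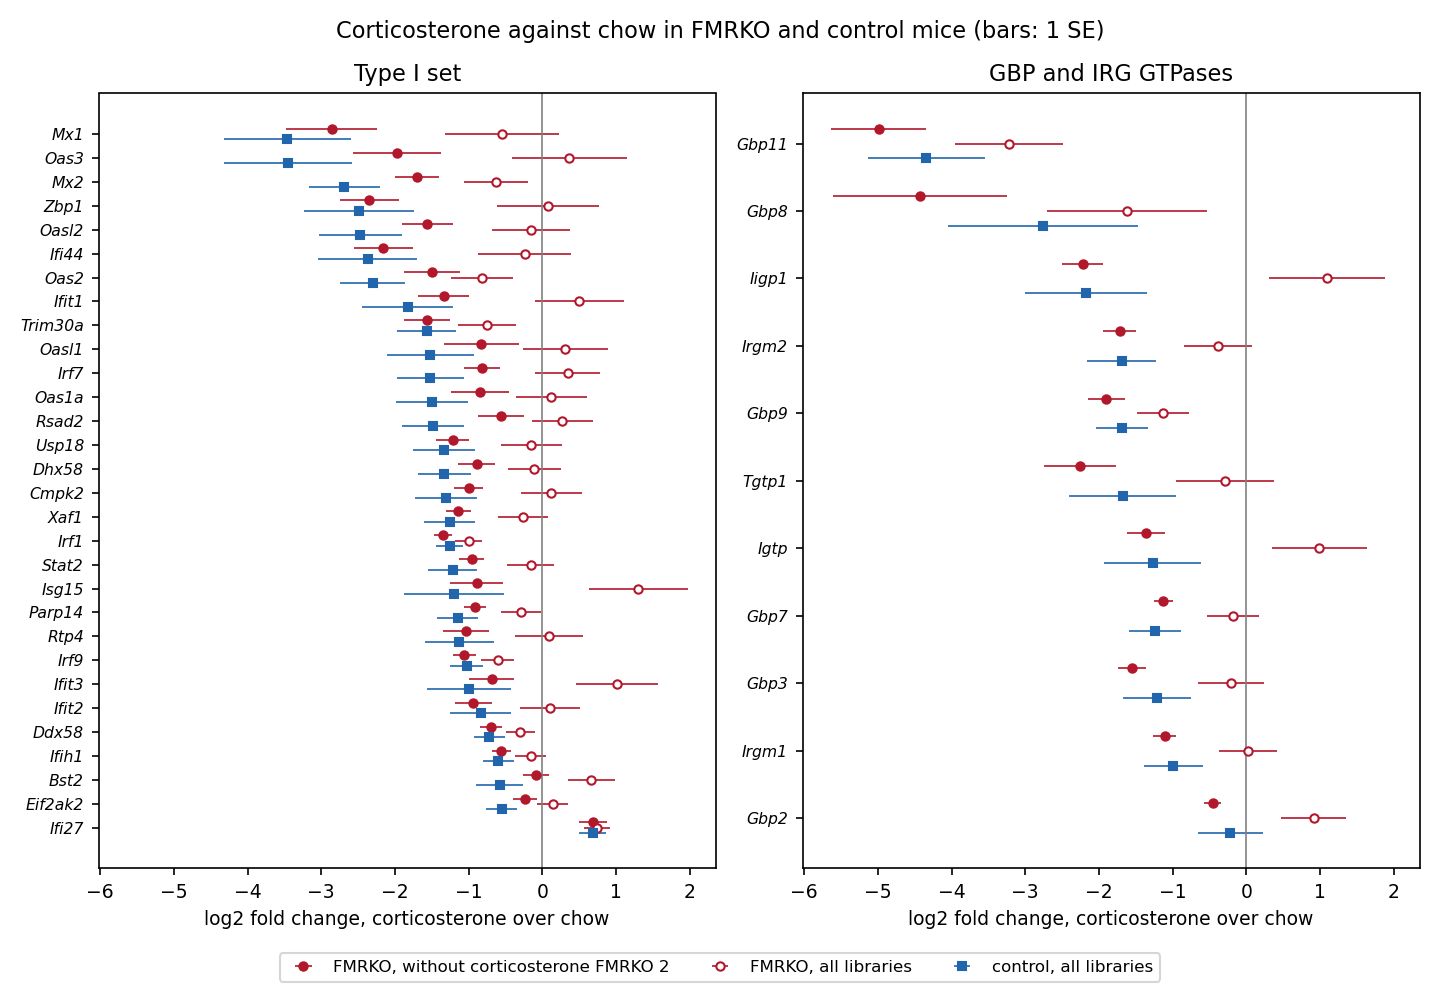
The log2 fold change of corticosterone over chow is plotted for each member with bars of 1 SE, for FMRKO mice without corticosterone FMRKO 2, FMRKO mice with all libraries and control mice. Without that library the FMRKO estimates lie close to those of control mice (medians -1.13 and -1.33), and with it they cluster near 0 (median -0.15).

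Whether the corticosterone effect differed between the genotypes was tested directly. No member passed in edgeR, DESeq2 or limma-voom, nor did any of the 19717 genes in edgeR. With all libraries, the effect in FMRKO mice minus that in control mice was positive for all 41 members, with a median of 1.23 (0.02 over all genes), and 23 members and 1171 genes had an unadjusted p under 0.05. Oas3 had the largest difference (3.82 ± 1.15, adjusted p = 0.525). Without corticosterone FMRKO 2, the median was 0.11 (-0.02 over all genes), 26 members were positive and 15 negative, none passed, and Mx2 and Rsad2 alone had an unadjusted p under 0.05 (0.98 ± 0.40 and 0.90 ± 0.42). Of all 20181 genes tested without FMRKO 2, 1109 had such a p. Without it the GTPases had a median of -0.23, 10 of 11 negative, and the type I set a median of 0.29, 25 of 30 positive. The 5 OAS genes ranged from 0.64 to 1.47, and none of these passed. For Iigp1 the difference was -0.06 ± 0.35 and for Gbp7 0.08 ± 0.17. These differences also include the one between the genotypes on chow, which is given below. Chow FMRKO 1 and 3 were rich in lymph node markers and no chow control library was. The part of lymph node cells was not tested, and the share of all genes by sign without FMRKO 2 is not given here. A test that is not passed does not show that the effects were alike.

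**Figure D4:**
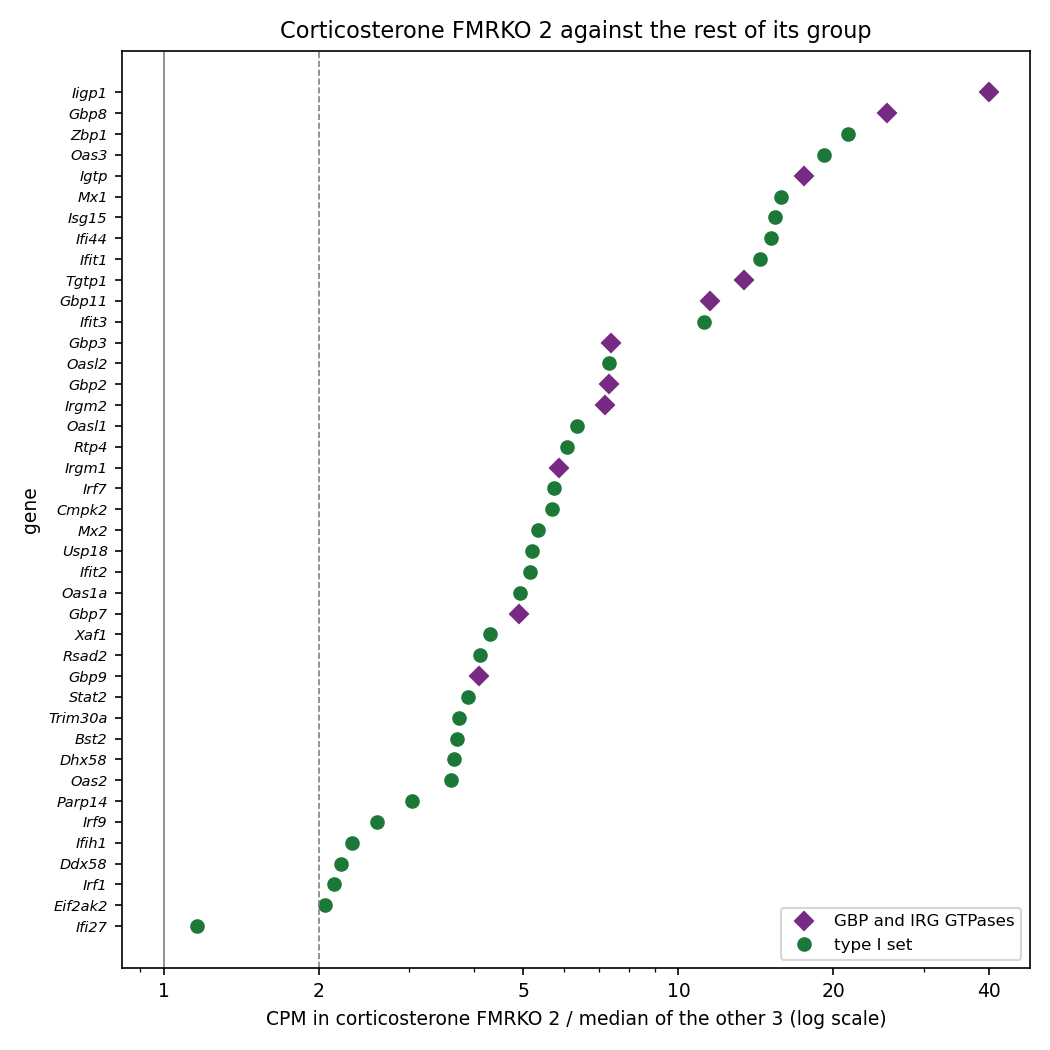
The ratio of CPM in corticosterone FMRKO 2 to the median of the other 3 libraries of its group is plotted on a log axis for each member, with a solid line at 1 and a dashed line at 2. GTPases and type I genes are mixed along the order, which runs from 40.0 for Iigp1 to 1.16 for Ifi27.

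Corticosterone was also set against high-fat diet, a comparison without the chow libraries. In control mice 16 members were lower and none higher, against 24.9% of all genes called and 14.2% lower. Their median was -0.89, against -0.05 over all genes. In 31 members every corticosterone library lay below every high-fat diet library, against 14.8% of all genes. The largest changes were in Gbp8, Tgtp1, Mx1, Iigp1 and Gbp9. Gbp8 had 0.108, 0.262, 0.165 and 0.128 CPM in corticosterone control libraries, against 5.88, 0.883, 1.18 and 8.15 CPM in high-fat diet control libraries (-4.53 ± 1.32, adjusted p = 0.016). High-fat diet control 1 and 4, where it was highest, were also the libraries rich in lymph node markers, and the part of lymph node cells was not tested. Tgtp1 had 3.46, 1.81, 1.49 and 2.92 CPM in high-fat diet control libraries (-2.59 ± 0.74, adjusted p = 0.014), Mx1 had 3.7, 1.94, 4.31 and 7.52 CPM in high-fat diet control libraries (-2.43 ± 0.84, adjusted p = 0.039) and Iigp1 had 20.6, 27.2, 30.9 and 18.1 CPM in high-fat diet control libraries (-2.37 ± 0.84, adjusted p = 0.043). Each high-fat diet library was above every corticosterone control library in these genes. Gbp9 had 32.9, 23.6, 35.9 and 49.1 CPM in high-fat diet control libraries (-2.06 ± 0.36, adjusted p = 3.4e-04). In FMRKO mice Irf1 and Gbp9 were lower and none was higher, against 15.8% of all genes called, 8.49% lower and 7.27% higher. Irf1 had 32.1, 68.6, 36.4 and 30.1 CPM in corticosterone FMRKO libraries, against 62.4, 55.8, 60.3 and 80.6 CPM in high-fat diet FMRKO libraries (-0.63 ± 0.18, adjusted p = 0.019). Gbp9 had 29.4, 27.9, 26 and 41.5 CPM in high-fat diet FMRKO libraries (-1.04 ± 0.35, adjusted p = 0.045), and FMRKO 2 overlapped those libraries in both genes. Without FMRKO 2, 19 were lower in FMRKO mice, 9 of 11 GTPases and 10 of 30 type I genes, against 13.3% of all genes called, and 28 were lower in control mice, against 26.3% of all genes called and 12.6% lower. The GTPase medians were then -1.46 in FMRKO and -1.18 in control mice, and the type I medians -0.61 and -0.74. Without the 6 libraries rich in lymph node markers, 3 members were called in control mice and none in FMRKO mice. Leaving out single libraries of either control group called 7 to 11 members, each of corticosterone control 1, 2 and 3 and high-fat diet control 3 and 4 giving 7. The shares of all genes called without the lymph node libraries or without single libraries are not given here.

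With all libraries, few members were called for high-fat diet against chow. In control mice Oas2 and Gbp11 were lower and Ifi27 was higher, against 29.2% of all genes called. In FMRKO mice Gbp11 was lower and Ifi27 higher, against 24.4% of all genes called and 9.18% of all genes lower. The medians of the members were -0.40 in FMRKO mice (-0.06 over all genes) and -0.37 in control mice (0.01 over all genes). Gbp11 had 5.49, 8.08, 7.26 and 4.36 CPM in high-fat diet FMRKO libraries and 2.39, 4.06, 2.57 and 2.09 CPM in high-fat diet control libraries, between the corticosterone and chow levels (-1.98 ± 0.69, adjusted p = 0.041 in FMRKO mice and -2.61 ± 0.72, adjusted p = 0.009 in control mice). In FMRKO mice its groups overlapped, since chow FMRKO 1 had 3.65 CPM. Without chow control 1, 7 members were called in control mice, and the share of all genes called in that fit is not given here. Oas2 had 10.6, 13.9, 11.5 and 8.00 CPM in high-fat diet control libraries (-1.60 ± 0.43, adjusted p = 0.008 in control mice and -1.04 ± 0.42, adjusted p = 0.079 in FMRKO mice). Chow control 1 overlapped the high-fat diet libraries in that gene. Ifi27 had 190, 223, 242 and 161 CPM in high-fat diet FMRKO libraries and 205, 244, 200 and 120 CPM in high-fat diet control libraries (0.74 ± 0.18, adjusted p = 0.005 in FMRKO mice and 0.52 ± 0.18, adjusted p = 0.037 in control mice). High-fat diet control 4 was low and inside the chow range. In control mice the type I set had a median of -0.42 and the GTPases of 0.02, and in FMRKO mice the medians were -0.41 and -0.38. Without corticosterone FMRKO 2, which is in neither group but enters the shared spread, 13 members were lower and 2 higher in control mice, and 11 lower and 1 higher in FMRKO mice, against 28.8% and 23.9% of all genes called. Gbp2 was then higher in control mice (0.47 ± 0.10) and Irgm2 lower in FMRKO and control mice (-0.92 ± 0.19 and -0.87 ± 0.19). With all libraries, the difference of the high-fat diet effect between genotypes had no member called and a median of 0.08. No member had an unadjusted p under 0.05, against 1939 of 19717 genes.

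The levels of the remaining members on high-fat diet follow as 2 ranges, over FMRKO libraries and then over control libraries. Among the factors and the Isg15 enzyme the ranges were Stat2 37.3 to 45 and 36.3 to 45.6 CPM, Irf7 28.5 to 36.4 and 23.2 to 35.1 CPM, Irf9 25.9 to 35.7 and 28.1 to 33 CPM and Usp18 6.49 to 12.6 and 6.76 to 11 CPM. Among Isg15, OAS and IFIT genes they were Isg15 3.57 to 5.96 and 4.19 to 6.39 CPM, Oas1a 5.27 to 6.94 and 3.59 to 5.63 CPM, Oasl2 19.7 to 26.1 and 16 to 24.6 CPM, Ifit1 6.4 to 9.07 and 5.2 to 9.83 CPM and Ifit3 15.1 to 20.0 and 12.2 to 23.8 CPM. The ranges of the genotypes overlapped in every one of these genes. Among sensors and effectors they were Ddx58 38.6 to 52.7 and 42.8 to 55.8 CPM, Eif2ak2 24.8 to 29.5 and 20.3 to 30.2 CPM, Rsad2 12.2 to 23.5 and 11.6 to 27.1 CPM, Bst2 39.5 to 51.8 and 39.8 to 47.9 CPM, Xaf1 18.8 to 20.0 and 15.3 to 21.4 CPM, Parp14 80.1 to 95 and 78.4 to 91.2 CPM and Rtp4 9.55 to 13.3 and 8.53 to 17.3 CPM. Among GTPases they were Gbp2 37.5 to 42.3 and 29.4 to 44 CPM, Gbp3 18.7 to 23.7 and 18.3 to 22.8 CPM, Gbp7 39.7 to 44.9 and 36.5 to 43.8 CPM, Irgm1 14.8 to 22.9 and 16.7 to 21.5 CPM and Igtp 8.21 to 15.2 and 10.3 to 13.4 CPM. These ranges overlapped as well.

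FMRKO was compared with control within each condition. No member was called under corticosterone, on high-fat diet, on chow or over their mean, in edgeR, DESeq2 or limma-voom, against 0.00507%, 0.0101%, 0.0101% and 0.0355% of all genes (0.0254% higher over the mean). Under corticosterone the members' median was 1.17 with all libraries and 0.14 without FMRKO 2, and the members with an unadjusted p under 0.05 numbered 38 and 1. The genes with such a p were 843 of 19717 with all libraries and 661 of 20181 without FMRKO 2. On high-fat diet the median was 0.02 and no member had an unadjusted p under 0.05, against 781 of 19717 genes. On chow the median was -0.07, 0.28 over the GTPases with 11 of 11 positive and -0.22 over the type I set with 23 of 30 negative. An unadjusted p under 0.05 was found for 1 member, against 2353 of 19717 genes. Gbp8 and Tgtp1 had the largest GTPase differences (2.37 ± 1.13 and 1.29 ± 0.68). Both were highest in chow FMRKO 1 and 3, which were rich in lymph node markers, as no chow control library was. Gbp11 (0.55 ± 0.67) was lowest of its group in chow FMRKO 1. The part of lymph node cells was not tested. In 7 members every corticosterone FMRKO library lay above every corticosterone control library, with FMRKO 2 and without it, namely Stat2, Irf1, Oas2, Oasl2, Ddx58, Rsad2 and Mx2. Such separation was found in 2.44% of all genes with FMRKO 2 and in 4.30% without it. Mx2 had 1.55, 8.00, 1.38 and 1.5 CPM in corticosterone FMRKO libraries, against 0.968, 0.446, 0.784 and 0.941 CPM in corticosterone control libraries. Its log2 fold change was 1.98 ± 0.47, adjusted p = 0.654 with FMRKO 2 and 0.90 ± 0.30, adjusted p = 1.000 without it. Stat2 had 29.5, 115, 29.4 and 29.7 CPM in corticosterone FMRKO libraries, against 26.8, 26.2, 24.3 and 28.9 CPM in corticosterone control libraries. Without FMRKO 2 its estimate was 0.14 ± 0.17.

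Chow libraries varied in the type I set. Chow control 1, 2, 4 and 5 averaged 3.72, 4.96, 4.32 and 4.61 log2 CPM over it, and chow FMRKO 1, 2, 3 and 5 averaged 4.37, 4.52, 3.79 and 4.4. The GTPases varied less, with 3.57 to 4.08 in chow control and 4.18 to 4.36 in chow FMRKO libraries. The macrophage list averaged 5.41, 7.25, 6.41 and 6.8 log2 CPM in the same 4 chow control libraries, in the same order as the type I set. In the 4 chow FMRKO libraries it averaged 6.11, 6.3, 5.81 and 6.03, below chow control 2, 4 and 5, while their type I averages lay within the chow control range. Among the corticosterone control libraries, whose type I averages were 2.95, 2.9, 2.88 and 3.3, it was 6.23, 6.71, 6.49 and 6.85. The part of macrophages in the type I levels was not tested.

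**Figure D5:**
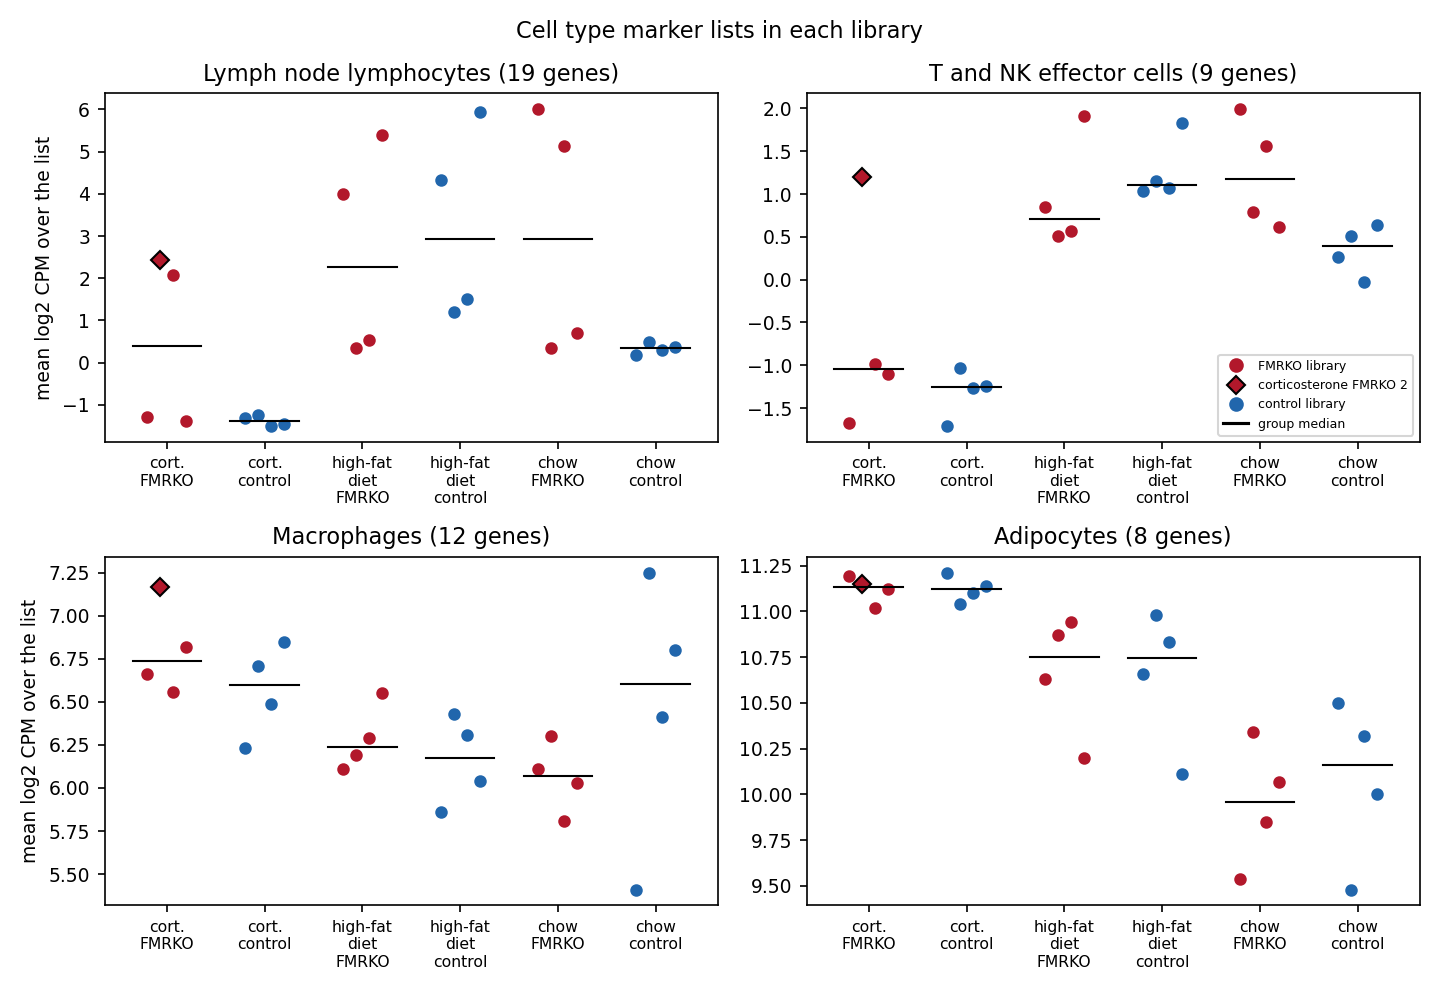
The mean log2 CPM of 4 marker lists is plotted for each library, with a line at the group median and a diamond for corticosterone FMRKO 2. T and NK effector markers average 1.2 in that library and -1.71 to -0.99 in the other 7 corticosterone libraries, and adipocyte markers lie between 11.02 and 11.21 in all 8.

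The rest of the pathway was followed under corticosterone against chow, with FMRKO values given without corticosterone FMRKO 2 and control values with all libraries. Counts in FMRKO and control mice thus come from different fits and do not compare the genotypes. Of 12 receptors, kinases, STATs and SOCS genes, 5 were lower and 2 higher in FMRKO mice, and 4 were lower and 1 higher in control mice. Of all genes tested, 36.5% were called in FMRKO mice (18.2% lower) and 42.9% in control mice (22.7% lower). In control mice the share of this list that was called was near that of all genes. The kinase genes Jak2 and Tyk2 fell (-0.63 ± 0.12 in FMRKO mice and -0.43 ± 0.10 in control mice for Jak2), and the receptor gene Ifngr1 rose (0.88 ± 0.16 in FMRKO mice and 0.83 ± 0.14 in control mice). Of 14 genes of nucleic acid sensing upstream of interferon, 5 were lower in FMRKO mice, and 4 were lower and 1 higher in control mice, so that the share called was near or below that of all genes. Cgas, the DNA sensor, changed by -1.06 ± 0.28 in FMRKO mice and -1.0 ± 0.27 in control mice, and Tlr9, a sensor of unmethylated DNA, by -2.62 ± 0.62 in FMRKO mice and -2.51 ± 0.63 in control mice.

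Gamma-induced genes outside the list also fell under corticosterone. All 8 genes of the MHC class II and chemokine list were lower in FMRKO mice without FMRKO 2. In control mice 7 of 8 were lower with all libraries, where Cxcl9 did not pass (-1.48 ± 0.65, adjusted p = 0.070). Without FMRKO 2, control mice too had 8 of 8 lower, against 20.9% of all genes. H2-Aa, a class II chain, changed by -2.87 ± 0.52 in FMRKO mice and -2.73 ± 0.44 in control mice, and Ciita, the class II transactivator, by -3.28 ± 0.70 in FMRKO mice and -2.33 ± 0.58 in control mice. H2-Aa had 39.2 CPM in corticosterone FMRKO 2, against 20.7, 59.1 and 26.7 CPM in the rest of its group, and so did not follow the GTPases there. Cxcl9, a T-cell attractant induced by interferon gamma, had 176 CPM in FMRKO 2, against 10.2, 10.5 and 10.6 CPM. With all libraries, dendritic cell markers had 6 of 8 lower in FMRKO mice and 4 of 8 in control mice. Lymph node markers had 11 of 19 lower in FMRKO mice and 0 of 19 in control mice. Of all genes, 20.9% were lower in FMRKO mice and 22.7% in control mice in that fit. The part of these cells in the fall of the class II genes was not tested. Lists here without a share beside them are set against 18.2% of all genes lower in FMRKO mice and 22.7% in control mice. Of 11 genes of MHC class I presentation, 8 were lower in FMRKO mice, and 8 were lower and 1 higher in control mice. Tap1, the peptide transporter, changed by -1.62 ± 0.31 in FMRKO mice and -1.21 ± 0.38 in control mice, and Psmb8, an immunoproteasome subunit, by -1.67 ± 0.21 in FMRKO mice and -1.57 ± 0.33 in control mice. Of 48 other interferon-stimulated genes, 29 were lower and 3 higher in FMRKO mice, and 26 were lower and 4 higher in control mice. Without FMRKO 2 the control counts of that list were 35 lower and 6 higher, against 20.9% of all genes lower and 20.9% higher. With all 4 libraries its FMRKO counts were 10 lower and 5 higher, against 20.9% of all genes lower and 20.2% higher.

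The interferon genes themselves were hardly read. Of 21 interferon genes listed, 14 had no count in any library and 4 had counts in at most 2 libraries, where a count of 0 allows up to 3 counts, or 0.0787 to 0.152 CPM depending on the library, by counting error alone. Ifnb1 had 2 counts, both in 1 library. Ifnk alone passed the filter, with 0.177 to 0.700 CPM in corticosterone FMRKO and 0.453 to 1.13 CPM in chow FMRKO libraries, and it was not called under corticosterone against chow in either genotype. Over the mean of both it was called with all libraries (-0.78 ± 0.32, adjusted p = 0.042) and not without FMRKO 2 (-0.64 ± 0.31, adjusted p = 0.086). On high-fat diet it had 0.211 to 0.389 CPM in FMRKO and 0.150 to 0.382 CPM in control libraries, and it was lower than on chow (-1.65 ± 0.47, adjusted p = 0.013 in FMRKO mice and -1.56 ± 0.47, adjusted p = 0.017 in control mice). Ifng had 57 counts over 14 libraries.

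Per gene length, as the CPM used here per kilobase and not the deposited RPKM, the chow control levels of the members spanned a wide range. Ifi27 had the highest level, 91.4, followed by Bst2 at 63.2, Irf7 at 20.3, Irf1 at 17.1 and Irgm2 at 16.0. At the other end, Ifi44 had 0.807, Gbp8 0.481 and Tgtp1 0.401. The 2 highest were thus the member that rose under corticosterone and Bst2, which with all libraries passed in neither genotype.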

How the data were processed

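RNA of inguinal white adipose tissue, depleted of ribosomal RNA, was sequenced in 24 libraries. Per the submitters' processing notes, reads were aligned with STAR 2.5.1a to GRCm38 and counted per gene with featureCounts 1.4.6p-5 of Subread. The annotation release and the strand setting were not given in the sources used here. The authors deposited raw counts, CPM (counts divided by the library's total) and RPKM (CPM per kilobase of gene length) for each library, and the deposited CPM and RPKM values were checked by recomputing them from the counts. Gene IDs were matched to symbols with the reference tables, which named 97.3% of the IDs.

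The counts were tested with edgeR 4.0.16 (R 4.3.3), by the two-sided quasi-likelihood test with TMM normalization, on genes that passed filterByExpr (minimum count 10), in 1 fit of 6 group means over all 24 libraries. p-values were adjusted by Benjamini-Hochberg over all 19717 genes, called at 0.05, and standard errors were derived from the F statistic. The fit had 18 residual degrees of freedom and a biological coefficient of variation of 34%. The fit without corticosterone FMRKO 2, made for every comparison, tested 20181 genes. Log2 CPM averages used a prior count of 2. The script was tested on simulated counts. Depth ran from 17925109 to 40427675 counts, and floors for a count of 0 cover counting error only.

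The members, sub-lists, marker lists and tests were chosen with earlier results of these data known. Any member or listed pathway gene could be named. Per-library CPM under corticosterone and on chow is given for a fixed set of 27 members whatever their result, plus the 5 members with the largest called change in each direction of a comparison. Alternatives were DESeq2 1.42.0 size factors and Wald test, limma-voom (limma 3.58.1), no filter, own groups only, a replicate block, covariates for and removal of libraries rich in lymph node or muscle markers, and leaving out each library. High-fat diet libraries with the same number deviated together (correlations of 0.2, 0.55, 0.55 and 0.72), so those numbers were taken to pair them, and no member was called between genotypes on high-fat diet with the block or without it. The values of 1 pathway gene are not reported here.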

Additional observations from a re-analysis of the deposited data

Results flagged for a closer look

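Single libraries far from the other 3 of their group were sought in 246 combinations of member and group, where the gap to the nearest library exceeded Dixon's critical share of the group's range for 4 samples. This held in 52 combinations, and chance gives about 1 in 20. Of the 52, 40 were the highest value of corticosterone FMRKO 2. In that library the CPM of the transcription factors were Stat2 115, Irf1 68.6, Irf7 151 and Irf9 45.7. Those of the ISG15, OAS and IFIT genes were Isg15 46.3, Usp18 36.4, Oas1a 19.6, Oas2 32.2, Oas3 34.9, Oasl1 20.1, Oasl2 88.6, Ifit1 44.0, Ifit2 33.9 and Ifit3 103. Those of the sensors were Ifih1 81.6, Ddx58 72.2, Dhx58 24, Zbp1 68.3 and Eif2ak2 47.0. Those of the other effectors were Rsad2 36.9, Mx1 20.9, Mx2 8.00, Bst2 134, Ifi44 11.7, Xaf1 41.4, Cmpk2 29.2, Parp14 173, Rtp4 45.2 and Trim30a 40.7. Those of the GTPases were Gbp2 180, Gbp3 52.4, Gbp7 95.9, Gbp8 7.24, Gbp9 33.7, Gbp11 8.48, Iigp1 207, Irgm1 62.9, Irgm2 135, Igtp 125 and Tgtp1 8.39. The same library held the highest T and NK effector markers under corticosterone, and their part was not tested.

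The other 12 combinations were spread over 6 libraries. Corticosterone control 4 was highest in its group for Irf9 (20.0 CPM), Bst2 (48.1 CPM), Gbp3 (12.5 CPM) and Irgm1 (12.9 CPM). High-fat diet FMRKO 3 was highest for Ifit3 (20.0 CPM) and high-fat diet FMRKO 4 for Parp14 (95.0 CPM). High-fat diet control 4, rich in lymph node markers, was lowest for Cmpk2 (8.42 CPM) and Gbp2 (29.4 CPM). Chow FMRKO 1 was highest for Mx1 (15.0 CPM), and chow FMRKO 3 was lowest for Oasl1 (2.49 CPM), Dhx58 (9.21 CPM) and Parp14 (82.0 CPM).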

How the results depend on the processing

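No member called in the fit of all libraries changed direction under any alternative. Estimates of members not called there could change sign, as that of Irf7 for corticosterone against chow did in FMRKO mice without corticosterone FMRKO 2. The tests of the difference between genotypes and of FMRKO against control called 0 members under each alternative. The counts of called members that moved by over 1.5 times were as follows, and the cause was not tested. Counts in this section are not set beside the share of all genes called in each fit. A change of power over all genes therefore cannot be told apart from a change in the members. For corticosterone against chow in FMRKO mice (5 called), fitting only the groups compared, leaving out the lymph node libraries or adding covariates gave 3, limma-voom 9, and leaving out the lymph node and muscle libraries, chosen after seeing the data, 1. That last setting gave 14 of 31 in control mice and 7 of 23 over both genotypes. For corticosterone against high-fat diet in FMRKO mice (2), no filter, the replicate block or leaving out the muscle libraries gave 1, and own groups, or leaving out the lymph node libraries with or without the muscle libraries, 0. In control mice (16), no filter gave 9, own groups 31, leaving out lymph node libraries 3, muscle libraries 5, both 0, and covariates 2. For high-fat diet against chow in FMRKO mice (2), own groups gave 7, leaving out both kinds of library 0, and limma-voom, the replicate block, or leaving out either kind 1. In control mice (3), own groups gave 7, DESeq2's Wald test 5, covariates 6, and leaving out the lymph node libraries, with or without the muscle libraries, 1. Requiring an A after the response element core lowered its share of promoters to 60.6%.

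Leaving out each library in turn gave 3 to 34 calls for corticosterone against chow in FMRKO mice, 23 to 40 in control mice and 18 to 41 over both, 0 to 19 for corticosterone against high-fat diet in FMRKO mice and 7 to 28 in control mice, and 1 to 12 and 2 to 15 for high-fat diet against chow in FMRKO and control mice. The highest count of each came without corticosterone FMRKO 2. Without chow FMRKO 1 the first of these was 3. Numbers did not pair the corticosterone libraries (correlations of -0.04 to 0.08) or the chow libraries (-0.28 to 0.11), and under the replicate block control mice had 27 members called for corticosterone against chow. Scaling moved the median of all genes by at most 0.05. Genes near 1 CPM, such as Gbp8 and Tgtp1, rest on few reads.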
